A study of Mus musculus with 2 samples.

Results

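Mir132 and Mir212 are a pair of neighbouring microRNA (miRNA) genes on mouse chromosome 11. They were found as the 2 rows, of 2202 annotated miRNA genes, whose identifiers carry those names in the GENCODE M21 annotation of mm10. RNA fragments shorter than 30 nucleotides were sequenced. The tissue was left cerebral cortex, taken from males at an age of 2 months. The animals were B6CASTF1/J, hybrids of the first generation between the inbred strains C57BL/6J and CAST/EiJ, with no treatment named in the labels. There was 1 group of 2 libraries, labelled male 3 (library 1) and male 4 (library 2). A single donor identifier is attached to both, so only their numbering says that they are different animals, and their spread could be technical. Without a second group there was no comparison between conditions, and each difference below lies between these libraries.

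MiRNAs are cut from hairpins in longer transcripts, and the mature strand guides a silencing complex to messenger RNAs that pair with its seed, here bases 2 to 8 from the 5′ end. Mir132 and Mir212 are known to be transcribed together under the transcription factor CREB, which is switched on by neuronal activity, by neurotrophins such as BDNF and, in the brain's clock, by light. The mature miR-132-3p is known for promoting the growth and branching of dendrites. Because both libraries come from whole cortex, fewer cells of a type and less RNA per cell cannot be told apart.

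The mature sequences of the pair are shown because they decide which reads belong to which gene and which seeds the genes supply. They are from RefSeq (GRCm38.p6, the same assembly as mm10), which held both arms of both hairpins. Capitals mark the seed.

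miR-132-3p: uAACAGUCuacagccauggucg
miR-212-3p: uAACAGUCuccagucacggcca
miR-132-5p: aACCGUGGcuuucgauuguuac
miR-212-5p: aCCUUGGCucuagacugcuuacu

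Both 3p arms carry the seed AACAGUC. Of the 1738 mature entries in the table, miR-132-3p and miR-212-3p were the 2 that carry it. Aligned without gaps, the 3p arms were identical over the first 9 bases and at 17 of 22 positions. Counted from 1 at the 5′ end, with the base of miR-132-3p first, they differ by A10C, C14U, U17C, U20C and G22A. The 5p arms have different seeds, ACCGUGG and CCUUGGC, and each of these occurred in 1 entry. With miR-212-5p moved by 1 base, the 5p arms matched at 14 of 21 positions.

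The hairpins are shown with their mature arms in capitals. Each was identical to the GENCODE M21 transcript on which the reads were counted.

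Mir132 hairpin: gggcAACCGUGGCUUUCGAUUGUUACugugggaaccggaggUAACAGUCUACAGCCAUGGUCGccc
Mir212 hairpin: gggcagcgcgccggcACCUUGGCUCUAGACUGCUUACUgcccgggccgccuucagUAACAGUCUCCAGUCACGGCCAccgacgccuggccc

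The Mir132 hairpin is 66 bases long with 57.6% G and C, and the Mir212 hairpin 91 bases with 69.2%. Folded in silico, Mir132 formed 26 base pairs with a minimum free energy of -37.2 kcal/mol, and Mir212 32 base pairs with -41.5 kcal/mol. Per base these energies were -0.56 and -0.46 kcal/mol. The longest run of bases that the hairpins share is 10. Against the other 2200 annotated hairpins, on either strand, the longest shared run was 11 bases for Mir132 and 12 for Mir212. A read of the full length of any of these 4 arms therefore matches only its own hairpin among those annotated, and other places in the genome were not searched. Multi-copy miRNA genes differ from the pair in this. A read that fits several copies is, by the layout of the files, given to none of them, and only reads that tell the copies apart are counted. Reads mapped to several places, from any source, made up 41.7% of all reads in library 1 and 41.1% in library 2.

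Mir212 (ENSMUSG00000065590.1) lies at chr11:75173388-75173478 and Mir132 (ENSMUSG00000065537.2) at chr11:75173682-75173747, both on the plus strand of mm10. Their hairpins are 203 bases apart. Both lie in the first intron of 1700016P03Rik, a gene of 3 exons annotated as a processed transcript on the same strand. Mir212 begins 790 bases after the end of the first exon (75172560 to 75172597), and Mir132 ends 230 bases before the second exon (75173978 to 75174161). No annotated gene on the minus strand overlaps the region from the start of Mir212 to the end of Mir132.

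**Figure D1:**
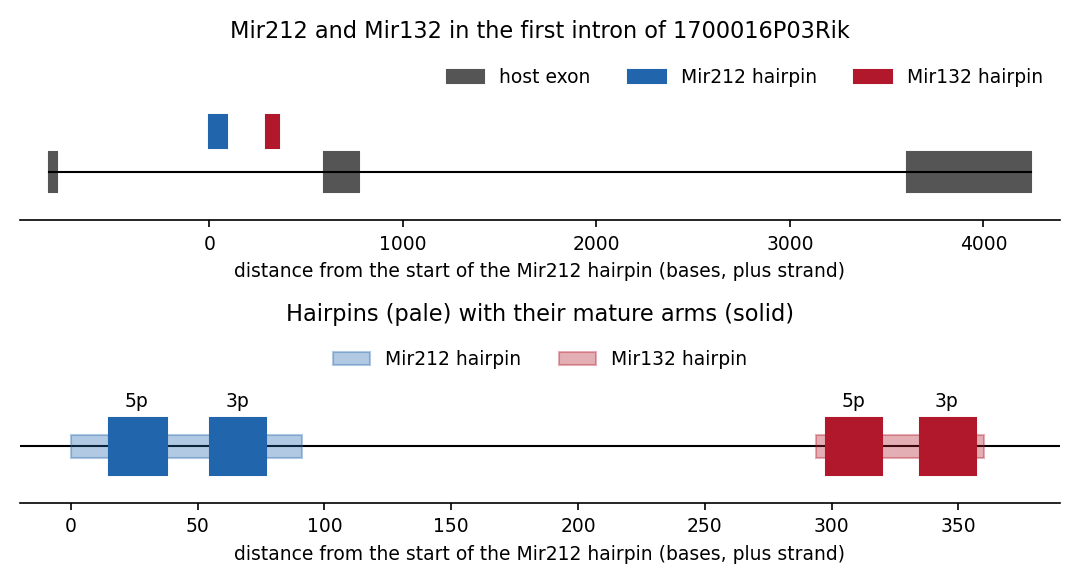
Map of the pair, in bases from the start of the Mir212 hairpin. The upper panel shows the 3 exons of the host 1700016P03Rik (grey) and the hairpins, and the lower panel shows each hairpin (pale) with its mature arms (solid). Mir212 comes first and the hairpins are 203 bases apart, both inside the first intron.

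By counted reads Mir132 was among the highest miRNA genes of these cortex libraries, whereas its neighbour Mir212 was far lower. Reads that fit several places were not counted. Multi-copy genes can thus be placed too low, and the pair's ranks and shares too high. On the sense strand, Mir132 had 185674 reads in library 1 and 137290 in library 2. In counts per 1000000 sense-strand miRNA reads (CPM) this was 48515 CPM and 30152 CPM. It ranked 4 of all miRNA genes in library 1 and 9 in library 2, and supplied 4.85% (95% Wilson interval 4.83 to 4.87%) and 3.02% (3.00 to 3.03%) of these reads. The mean was 39333 ± 12985 CPM (SD, n = 2). Each read is shorter than 30 nucleotides and can cover a whole mature miRNA, so counts were not divided by hairpin length. Intervals here cover counting error only: no molecular identifiers are recorded, so several reads can stem from 1 molecule.

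Mir212 had 2877 reads in library 1 and 3049 in library 2, or 752 CPM and 670 CPM. It ranked 110 and 112, with shares of 0.0752% (0.0725 to 0.0780%) and 0.0670% (0.0646 to 0.0694%). Its mean was 711 ± 58.1 CPM (SD, n = 2). Both genes therefore passed the detection minimum of 10 reads in both libraries, as did 406 of the 2202 genes. The library totals behind these values were 3827158 sense-strand miRNA reads in library 1 and 4553291 in library 2.

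All reads at the pair lay on the annotated strand. The opposite-strand column held 0 reads at either gene in both libraries. For Mir132 this allows opposite-strand reads of up to 0.00162% of its sense reads in library 1 and 0.00219% in library 2, and for Mir212 up to 0.104% and 0.0984%. The column that ignores strand gave the same counts as the sense column at both genes.

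**Figure D2:**
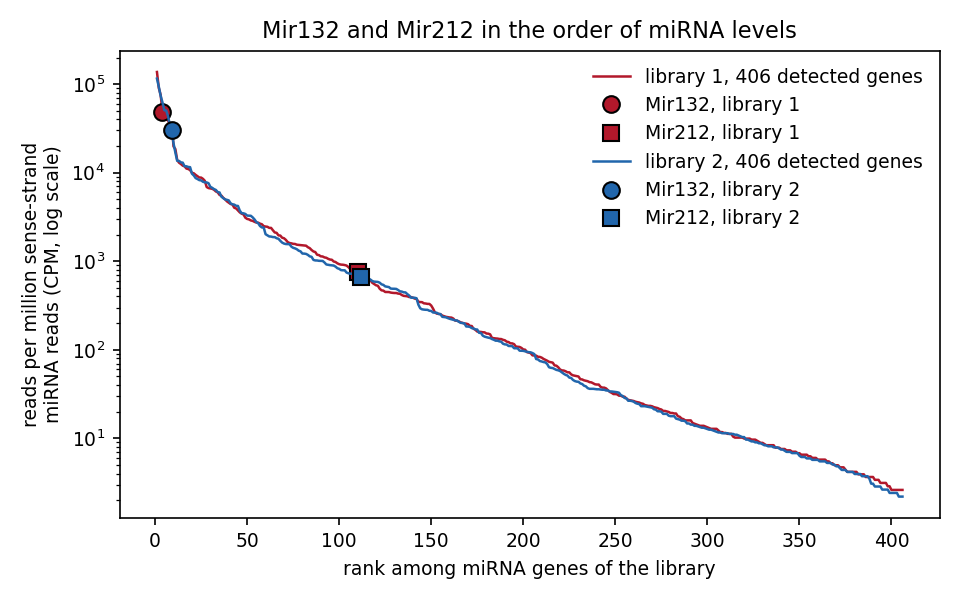
CPM (log scale) against rank for the 406 detected genes of each library (lines), with Mir132 (circles) and Mir212 (squares) marked at their rank. Mir132 sits on the steep start of both curves, at rank 4 and 9, and Mir212 at rank 110 and 112. Reads that fit several places are left out, so multi-copy genes can be placed too low.

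In the order of mean levels by counted reads, Mir132 stood 8th. Next above it were Mir744 at 41966 ± 2336 CPM and Mir127, an imprinted miRNA, at 43068 ± 10492 CPM (SD, n = 2). Below it stood Mirlet7e, of the let-7 family, at 35298 ± 960 CPM, and then Mir23b at 20652 ± 1176 CPM. The 2 values of Mir132 overlapped the range of Mir127, Mir744 and Mirlet7e. Mirlet7i and Mirlet7d, higher in mean level, also changed places with Mir132. They had 184104 and 148797 reads in library 1, fewer than Mir132, and 283271 and 231373 in library 2, more than Mir132. The place of Mir132 among these genes is therefore not settled, while both of its values lay above those of Mir23b. Around Mir212 stood Mir381 (745 ± 243 CPM), Mir451a (738 ± 962 CPM), Mir146 (708 ± 96.0 CPM) and Mir467d (699 ± 129 CPM). The range of each of these 4 overlapped that of Mir212.

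Nearly all of the pair's reads came from Mir132. The ratio of Mir132 to Mir212 reads was 64.5 in library 1, with a 95% exact interval from 62.2 to 67.0. In library 2 it was 45.0 (43.4 to 46.7), and the geometric mean was 53.9. Mir212 supplied 1.53% of the pair's reads in library 1 (1.47 to 1.58%) and 2.17% in library 2 (2.10 to 2.25%). Taken per base of hairpin, the ratio was 74.3. Counts were given per hairpin, so the share of the 3p arms, which carry the common seed, was not measured. As a pair the genes supplied 4.00% ± 1.30 of all counted miRNA reads (SD, n = 2).

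Most neighbouring miRNA genes differed less from each other than Mir132 and Mir212. Adjacent miRNA genes on 1 strand with starts within 1000 bases, both detected, formed 58 such pairs. Their ratio of the higher to the lower gene ranged from 1.02 (Mir195a over Mir497) to 273 (Mir323 over Mir758), with a median of 5.86. These ratios are geometric means of both libraries, and the order of pairs differed within single libraries. The widest rests on 20 and 11 reads of Mir758. By the geometric mean, 5 pairs had a wider ratio than Mir132 over Mir212. Each of these 5 contained a gene whose hairpin shares at least 20 bases with another annotated hairpin, so that its reads may have been counted incompletely. A restriction chosen after seeing the data left the 34 pairs without such a gene. There Mir132 over Mir212 had the widest geometric mean ratio and Mir34c over Mir34b, at 52.9, the next. That order did not hold in each library. In library 2 the ratio of 45.0 was lower than for Mir322 over Mir503 (3330 and 51 reads). It was also lower there than for Mir34c over Mir34b (1065 and 23 reads). Some pairs share a gene, so they are not independent.

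Both members were higher in library 1, but by different amounts. Mir132 was 1.61-fold higher in library 1 than in library 2 (log2 ratio 0.69, 95% exact interval 0.68 to 0.70). Mir212 was 1.12-fold higher (log2 ratio 0.17, 0.09 to 0.24; exact binomial test, Benjamini-Hochberg adjusted p = 2.88e-05). For Mir132 the p of this two-sided test was smaller than the computation could represent. The test allows for counting error only and compares these libraries, not conditions. Of 508 genes tested, 246 (48.4%) differed by it, and 128 (25.2%) were higher in library 1. Among the 199 genes with a mean of at least 100 CPM, where depth is greater, 170 (85.4%) differed with 84 (42.2%) higher in library 1 and 86 (43.2%) higher in library 2. That both members passed is therefore close to what genes of their depth did in general.

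The size of the difference set the members apart from each other. Over the 406 detected genes the median absolute difference was 1.28-fold, and 203 genes were higher in each library. Mir132 exceeded that median, and 86 detected genes (21.2%) had a wider difference. Of the 92 genes with a mean of at least 1000 CPM, 14 had a wider difference than Mir132, and of the 10 genes with the highest mean none had. Mir212 lay under the median, with 304 detected genes (74.9%) differing more.

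When the spread between the samples was allowed for, neither gene passed. In edgeR's exact test with the common dispersion, the log2 ratio was 0.70 for Mir132 (unadjusted p = 0.310, adjusted p = 1) and 0.18 for Mir212 (unadjusted p = 0.791, adjusted p = 1). The dispersion, estimated from the same libraries, corresponded to a coefficient of variation of 33.3%, against 33.0% for the CPM of Mir132 and 8.17% for that of Mir212. In this test 4 of 508 genes (0.787%) differed. Because the spread was fitted to the same difference that was tested, this test only describes how far a gene stood from the rest. A p above the threshold does not show that the levels were equal.

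**Figure D3:**
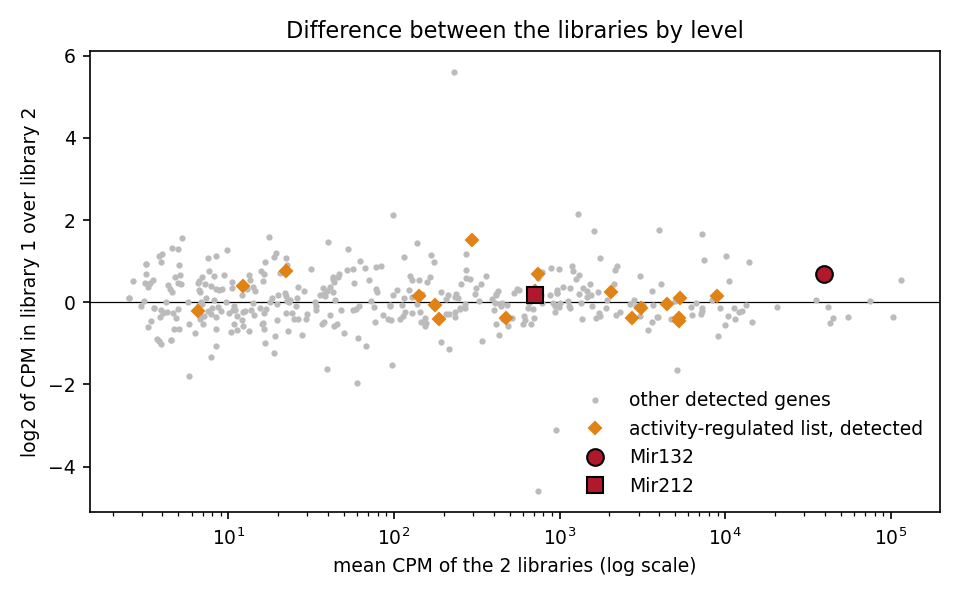
Log2 ratio of CPM in library 1 over library 2 against mean CPM (log scale) for the detected genes, with Mir132 (circle), Mir212 (square) and the detected members of the activity-regulated list (diamonds). Mir132 lies at 0.69 with few genes of its level as far from 0, and Mir212 lies at 0.17 among many genes of like difference.

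The balance within the pair thus differed between the libraries beyond counting error. The ratio of Mir132 to Mir212 was 1.43-fold higher in library 1 (log2 difference 0.52; two-sided Fisher's exact test, p = 1.04e-42). With the common dispersion of edgeR added to each count, the approximate 95% interval of this log2 difference ran from -1.36 to 2.40 and included 0. The dispersion treats the members as varying independently, which genes of 1 transcript need not do. Among the 58 neighbouring pairs the median change of the ratio was 1.49-fold and the widest 6.23-fold. In 32 pairs the ratio changed more than for Mir132 and Mir212.

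**Figure D4:**
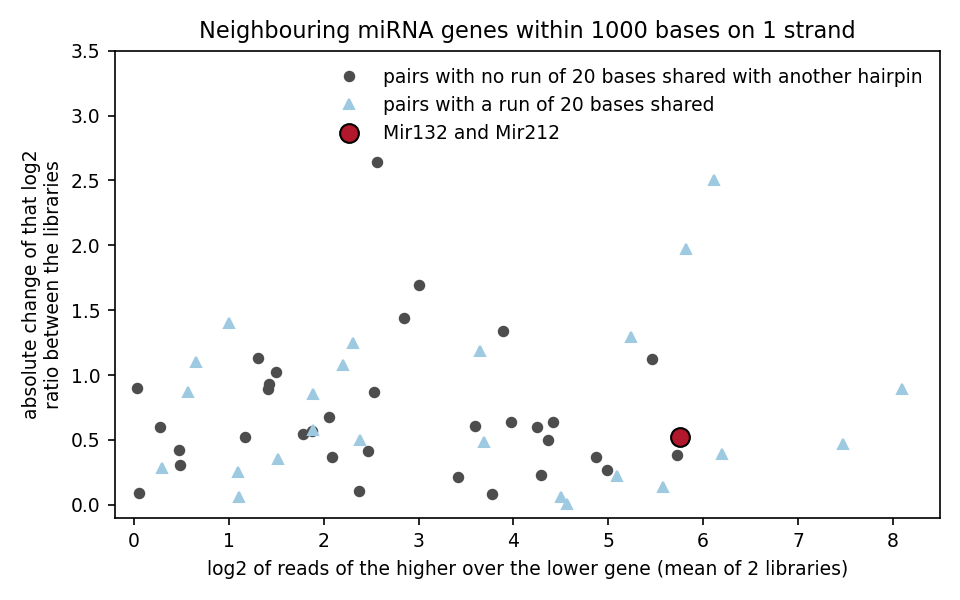
Each point is a pair of adjacent detected miRNA genes on 1 strand with starts within 1000 bases. The x axis is the log2 ratio of reads of the higher over the lower gene and the y axis the absolute change of that log2 ratio between the libraries. Mir132 and Mir212 (large circle) lie at 5.75 and 0.52, far to the right and near the middle in height. Triangles are pairs with a gene whose hairpin shares 20 bases with another.

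Other miRNAs tied to neuronal activity did not share 1 direction between the libraries, and none was predicted. The list holds 19 genes described as regulated by activity, synaptic plasticity or the light cycle, without the pair, and 18 were detected. It does not record whether activity raises or lowers each gene, and a difference in activity between the libraries was not tested. Mir137, Mir138-1, Mir138-2, Mir146, Mir219a-1 and Mir219a-2 also stand in the cell type lists below, so those lists are not separate observations. By the exact binomial test 7 genes of this list were higher in library 1, 7 in library 2 and 4 did not pass. Over all genes tested 25.2% were higher in library 1 and 23.2% in library 2. Among genes averaging 100 CPM or more, as most detected members did, these shares were 42.2% and 43.2%. The median log2 ratio of the detected members was 0.02, beside -0.00055 over all detected genes. None passed edgeR's exact test. Together they supplied 3.91% of the counted miRNA reads of library 1 and 4.10% of those of library 2, so that Mir132 alone exceeded the counted reads of all 19 in library 1 and lay below them in library 2. The hairpins of 5 of the 19, Mir138-1, Mir138-2, Mir146, Mir219a-1 and Mir219a-2, have 20 or more bases in a row in common with another hairpin, so their levels and this sum may be too low.

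The counts of the list's highest members were well below that of Mir132. Mir191 stood at 8976 ± 685 CPM and was 1.11-fold higher in library 1. Mir137, a regulator of synaptic genes, stood at 5347 ± 241 CPM (1.07-fold higher in library 1). Mir379, of the cluster induced by the transcription factor MEF2, stood at 5290 ± 981 CPM (1.30-fold higher in library 2). Mir138-1, a brain miRNA that limits the size of dendritic spines, stood at 5240 ± 1140 CPM (1.36-fold higher in library 2), with reads that fit its second copy, Mir138-2, left uncounted. Mir335 followed at 4448 ± 94.1 CPM (1.03-fold higher in library 2) and Mir485, which acts on presynaptic SV2A, at 3126 ± 219 CPM (1.10-fold higher in library 2). By the exact binomial test with Benjamini-Hochberg adjustment each of these 6 differed, Mir335 with adjusted p = 0.00938. Mir134, which limits spine size by silencing Limk1, stood at 478 ± 88.4 CPM and was named outside the rule, after its values were seen.

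Genes whose library ratio was most like that of Mir132 were sought among 91 others with a mean of at least 1000 CPM. With 2 libraries a gene's pattern is a single ratio, so likeness is weak and a description only. The nearest were Mir29c (log2 ratio 0.65), Mir298 (0.64), Mir668 (0.75), Mir338 (0.79) and Mir222 (0.57). For Mir212, among 197 others with a mean of at least 100 CPM, they were Mir434 (0.17), Mir3102 (0.17), Mir872 (0.18), Mir191 (0.16) and Mir873a (0.18). Mir191 was thus also the highest member of the activity-regulated list.

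Within 500000 bases of Mir132 the annotation holds 4 further miRNA genes. Mir22, at chr11:75463716-75463810 on the same strand and 290034 bases from the start of Mir132, was the only one detected. It had 42155 reads in library 1 and 15920 in library 2, or 11015 CPM and 3496 CPM. It was 3.15-fold higher in library 1 (log2 ratio 1.66) by the exact binomial test, and did not pass edgeR's exact test (adjusted p = 0.572). Its difference was thus wider than that of either member. Mir6926 had 9 and 8 reads, and Gm47300 and Mir3971 had none, which allows up to 0.784 CPM in library 1 and 0.659 CPM in library 2.

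Markers of the labelled tissue were present, and the shares of several marker lists differed between the libraries beside the pair. The 16 listed neuronal genes, without the pair, supplied 3.07% of the counted miRNA reads of library 1 and 2.41% of those of library 2, led by Mir128-1 at 10137 ± 5296 CPM (2.17-fold higher in library 1). That order rests on Mir128-1: without it, an alternative added after seeing the data, the list held 1.68% in library 1 and 1.77% in library 2. Mir124a-1, of the family best known as a neuronal marker, was at 3.28 CPM, but its copies share the mature sequence and their low counts cannot be read as low expression. The hairpins of 14 of the 16 share at least 20 bases with another, so this limit covers most of the list. Of the neuronal list 4 genes were higher in library 1 and 4 in library 2, and its median log2 ratio was -0.02. The astrocyte list of the miR-29 family held 1.43% and 0.986%, led by Mir29a at 10625 ± 2718 CPM. Of its 4 genes, 3 were higher in library 1. The hairpins of Mir29b-1, Mir29b-2 and Mir29c share at least 20 bases with another, so their counts may be too low. The oligodendrocyte list held 0.498% and 0.347%, led by Mir338 at 2161 ± 815 CPM, with 2 of 3 higher in library 1. The limit of shared bases also covers Mir219a-1 and Mir219a-2. The list for microglia and leukocytes held 0.216% and 0.175%, led by Mir150 at 1155 ± 191 CPM. Of its 5 genes, 3 were higher in library 1. Among these 3, Mir223 had 61 reads in library 1 and 8 in library 2. It thus missed the detection minimum of 10 reads in both libraries and entered the tests by its total. The counts of genes higher in 1 library are from the exact binomial test. By it 25.2% of all genes tested, and 42.2% of those averaging 100 CPM or more, were higher in library 1. In edgeR's exact test no gene of the neuronal, astrocyte and oligodendrocyte lists passed, and 1 of the microglia and leukocyte list did (Mir223, adjusted p = 0.0457).

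The summed red blood cell and vessel markers were higher in library 2, but not each gene. The red blood cell list held 0.0134% in library 1 and 0.155% in library 2, led by Mir451a, with 2 of 3 genes higher in library 2 by the exact binomial test, while the third, Mir486, was 1.47-fold higher in library 1 (adjusted p = 0.000871). The vessel list held 1.44% and 1.86%, led by Mir126a at 9962 ± 2634 CPM, with 2 of 3 genes higher in library 2, while Mir145a was 1.15-fold higher in library 1 (exact binomial test, adjusted p = 0.00471). Over all genes tested 23.2% were higher in library 2, and in edgeR's exact test Mir451a was the only gene of these 2 lists to pass (adjusted p = 2.66e-06). Among genes averaging 100 CPM or more, 43.2% were higher in library 2 by the exact binomial test. The hairpin of Mir486 shares at least 20 bases with another, so its counts may be too low. The choroid plexus list, led by Mir204 at 444 ± 19.7 CPM, held 0.0721% and 0.0724%, and none of its 5 genes passed the exact binomial test. Markers of other organs, led by the islet miRNA Mir375 at 153 ± 29.5 CPM, held 0.0274% and 0.0305%, with 1 of 7 genes higher in library 1 and 2 in library 2. With the red blood cell genes left out of counts and totals, the log2 ratio was 0.68 for Mir132 and 0.16 for Mir212. At 0.0134% and 0.155% of the reads, that list is too small for its removal to move these ratios much. The part of blood or of any other cell type in the difference between the libraries was not tested.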

How the data were processed

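Small RNA was sequenced in 2 libraries of 1 group. The authors deposited whole-number read counts per miRNA gene, not normalized, in 3 columns: without regard to strand, sense and opposite strand. Per the labels, reads were placed on mm10 with the GENCODE M21 genes. An aligner or a trimming step is not given in the sources used here. The tables look like STAR's counts per gene, where reads with several places form a tally of their own. CAST/EiJ reads that differ from mm10, a C57BL/6J sequence, could be missing.

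Totals and tests left out the 4 tally rows. They held 19.6% and 18.9% unmapped reads, 41.7% and 41.1% reads mapped to several places, and 5.03% and 4.94% outside the sense strand of miRNA genes, of 11372894 and 12980686 reads. CPM values are counts per 1000000 sense-strand miRNA reads. Genes with 10 or more reads in total were compared by an exact binomial test (two-sided, conditional on the library totals), adjusted by Benjamini-Hochberg at 0.05. The spread between samples was fitted with edgeR 4.0.16 (TMM factors, intercept-only common dispersion) in R 4.3.3. With 1 library on each side no quasi-likelihood test could be fitted. DESeq2 1.42.0 gave alternative size factors. Intervals are at 95%, and a count of 0 was given the limit of 3 reads. Python 3.11.15, scipy 1.17.1, pandas 2.3.3 and RNAfold of ViennaRNA 2.7.2 did the rest. The tests were tried on simulated counts.

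The members, lists, tests and alternatives were chosen with earlier results of these data known. Genes named are the pair, its 2 neighbours on each side in mean level, the 5 genes of nearest library ratio, the 6 highest of the activity-regulated list, detected genes within 500000 bases, the highest marker of each cell type and the pairs of widest and narrowest ratio. Others are named as examples. Promoter sequence of the pair was not used here. Mature arms and parental alleles were not analysed.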

Additional observations from a re-analysis of the deposited data

Results flagged for a closer look

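Reads mapped to several places, which enter none of the comparisons, made up 41.7% of library 1 and 41.1% of library 2. They were noted because they lie outside the counts per gene. How many of them, if any, came from Mir132 or Mir212 was not tested.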

How the results depend on the processing

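For both members the direction held under the alternatives tried. Over 11 alternatives each, the log2 ratio of library 1 over library 2 ranged from 0.63 to 0.76 for Mir132. For Mir212 it ranged from 0.11 to 0.24. The alternatives are not independent: all use the same 2 counts per gene and differ in the total, the filter or the test. A change of the filter on low counts cannot move these ratios. In edgeR's exact test with the common dispersion these ratios (0.70 and 0.18), and with DESeq2 size factors (0.69 and 0.17), no longer passed, since that test adds the spread between the samples. The change of the pair's ratio, 0.52 on the log2 scale, likewise had an interval including 0 once that spread was added. Levels depend on the denominator by construction. Per 1000000 of all reads the mean was 13451 for Mir132 and 244 for Mir212. For Mir212 it was 621 per 1000000 uniquely mapped reads and 805 without Mir139 in the total. Leaving out each library in turn, mean CPM ranged from 30152 to 48515 for Mir132 and from 670 to 752 for Mir212, and the ratio of Mir132 to Mir212 from 45.0 to 64.5. Per base of hairpin, an alternative added after seeing the data, that ratio was 74.3. Leaving out the red blood cell list was also added then, as was leaving out the highest gene of each marker list. Without Mir128-1 the log2 ratio of the neuronal list's share turned from 0.35 to -0.0739. The order of the libraries also turned for the choroid plexus list without Mir204 (0.0291% in library 1 and 0.0266% in library 2). It turned as well for the markers of other organs without Mir375 (0.0142% and 0.0131%). For the remaining marker lists the order held. The number of genes that differed ranged from 222 to 251 by the exact binomial test and from 3 to 4 by edgeR's exact test. No paired analysis was possible because there is 1 group. With 2 libraries each SD rests on 2 values.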
